A study of Mus musculus with 6 samples.

Results

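The genes described here encode the machinery that licenses origins of DNA replication and copies DNA at the fork, here in 4-cell mouse embryos. They were chosen by gene symbol, and 47 of the 29431 genes in the authors' deposited table matched. Among them are the origin recognition complex, its loading partners Cdc6 and Cdt1 with the inhibitor geminin (Gmnn), and the MCM helicase with its activators. The others encode polymerases alpha, delta and epsilon with primase, the clamp Pcna and its loader, the single-strand binding protein RPA, and the enzymes that finish Okazaki fragments. The symbol rule also took in Mcm3ap, which shares a prefix with Mcm3 but encodes an mRNA export factor and no replication subunit. Symbols outside the rule, such as that of the catalytic polymerase epsilon subunit Pole, entered a separate list described at the end.

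The embryos carried the wild-type genotype, and 3 libraries came from untreated controls. The other 3 came from embryos treated with AXKO-0046, given in the labels as inhibition of LDHB, the lactate dehydrogenase subunit associated with turning lactate into pyruvate. The labels used here name no strain, dose or length of exposure, and the design text gives 6 embryos from each group, which may mean per library or in all. Since the labels mention no separate litters or cultures, every p-value below reflects only how far these libraries scatter, and that scatter may be technical. Full-length cDNA was primed on poly(A) tails from very small RNA inputs. The values are FPKM, fragment numbers scaled by transcript length and by the fragments of the library, so levels of different genes are given per length. Whether poly(A) priming captured the transcripts of different genes equally was not tested.

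Replication starts in 2 steps that a cell keeps apart in time. In licensing, the origin recognition complex, Cdc6 and Cdt1 load the MCM2-7 helicase onto DNA as an inactive double ring, and geminin blocks Cdt1 once DNA synthesis begins so that no origin is loaded again. In firing, Cdc45 and the GINS complex join the helicase, polymerase alpha with primase lays down primers, and polymerases epsilon and delta extend them while held by the clamp. Cleavage-stage embryos divide without growing, and much of this machinery is supplied by the egg as RNA and protein. RNA levels therefore need not follow the amount of protein or the rate of DNA synthesis, neither of which was measured.

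Facts about the libraries bear on all results below. All 47 genes were above 0 in every library, and together they took between 0.351% and 0.403% of all FPKM. Markers fit the label in part: Dppa3, a maternal factor kept through cleavage, ran from 10514 to 18144 FPKM and Klf17 from 98.2 to 219.2 FPKM, while Pou5f1 was between 1.15 and 11.3 FPKM. Sall4, another gene of that list, was at 18.4 to 26.4 FPKM in controls and at 32.1 to 53.5 FPKM in all 3 inhibitor libraries (limma unadjusted p = 0.0187, adjusted p = 0.493). It alone of that list had separate groups, and of 7 tested genes 5 fold changes were above 0 and 2 below. Over all genes tested, 9.13% had every inhibitor library above every control, and 6.26% had every one below. The summed level of 10 oocyte genes did not overlap between the groups. It was 83.4, 77.2 and 95.01 FPKM in controls and 66.4, 49.7 and 45.5 FPKM in the inhibitor libraries, and of 6 tested 2 fold changes were above 0 and 4 below. Npm2 and Oosp1 were below every control in all 3 inhibitor libraries, with log2 fold changes of -0.67 and -1.42 (limma unadjusted p = 0.00750 and 0.00147, adjusted p = 0.426 and 0.378). Most of the sum came from these genes and Zp3, whose groups overlapped, since the other oocyte genes averaged at most 1.93 FPKM. The part of these maternal transcripts in the values of the replication genes was not tested. Of 12 markers of cumulus and granulosa cells, which surround the egg, 7 were in the table, and their summed level was between 0.0203 and 1.23 FPKM. Inhibitor replicate 2 stood apart. The summed level of 9 genes of the 2-cell stage came to 891 FPKM in it, while the remaining 5 libraries had 9.55 to 26.96 FPKM. Its median Pearson correlation with the others over 9691 genes, which are not independent replicates, was 0.888 against 0.946 to 0.965. Its part in the results was not tested. Without it the split of fold changes above and below 0 went from 5 and 1 to 4 and 2 in MCM2-7, from 2 and 5 to 4 and 3 among the helicase activators, from 1 and 3 to 0 and 4 in polymerase alpha with primase, from 1 and 2 to 0 and 3 in RPA, and from 2 and 0 to 0 and 2 in Okazaki maturation. Such splits also moved when other libraries were left out. The helicase activators were at 6 and 1 without inhibitor replicate 3. Without inhibitor replicate 1, MCM2-7 was at 4 and 2, RPA at 2 and 1 and Okazaki maturation at 1 and 1. With a few cells per library, fewer cells of a kind and less RNA per cell cannot be told apart.

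The sequences before the RefSeq starts hold a feature that the symbol rule did not use. E2F transcription factors drive many replication genes at the entry into S phase, and their classic site reads TTTCCCGC, TTTCGCGC, TTTGCCGC or TTTGGCGC. In the 250 bases before the RefSeq start, searched on both strands in GRCm38.p6, one of these words was found in 10 of the 40 genes with a sequence in the table (25.0%). Among 17492 protein-coding genes 475 held one (2.72%). Some words overlap each other, as they do in Mcm5 and Mcm6. RefSeq and GENCODE place starts differently, so some of these bases are transcribed by the GENCODE annotation: in 5 of the 10 genes (Gins3, Mcm7, Orc1, Pole4 and Rfc3) the match lies in an exon of the gene itself, and for Mcm7 all 250 bases do. The Cdc6 match lies inside the annotated gene but in no exon. The following 30-base windows, on the strand of the gene and with the match in capitals, are shown because they include both genes with an unadjusted p under 0.05 (Cdc6 and Rfc3) and 3 helicase subunits.
Cdc6, chr11:98908002-98908031, plus strand: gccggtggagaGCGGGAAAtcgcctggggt
Rfc3, chr5:151651200-151651229, minus strand: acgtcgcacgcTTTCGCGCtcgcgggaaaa (the last 9 bases lie past the start, outside the searched region, and hold 1 further listed word, left in lower case)
Orc1, chr4:108579416-108579445, plus strand: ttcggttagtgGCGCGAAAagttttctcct
Orc3, chr4:34614965-34614994, minus strand: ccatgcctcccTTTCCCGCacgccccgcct
Mcm5, chr8:75109345-75109374, plus strand: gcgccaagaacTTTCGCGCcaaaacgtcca
Mcm6, chr1:128359734-128359763, minus strand: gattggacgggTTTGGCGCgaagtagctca
Mcm7, chr5:138172030-138172059, minus strand: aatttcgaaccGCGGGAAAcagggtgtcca
Gins3, chr8:95633507-95633536, plus strand: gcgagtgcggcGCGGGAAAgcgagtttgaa
Pola1, chrX:93632275-93632304, minus strand: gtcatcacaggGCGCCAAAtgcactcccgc
Pole4, chr6:82652890-82652919, minus strand: ctctacccggcGCGGGAAAggggccgaaat

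Mcm6 held 3 matches, at 110, 106 and 47 bases before its start, the first 2 of them overlapping. Its whole 250-base upstream region is shown for that reason, with the matches in capitals.
Mcm6, chr1:128359706-128359955, minus strand: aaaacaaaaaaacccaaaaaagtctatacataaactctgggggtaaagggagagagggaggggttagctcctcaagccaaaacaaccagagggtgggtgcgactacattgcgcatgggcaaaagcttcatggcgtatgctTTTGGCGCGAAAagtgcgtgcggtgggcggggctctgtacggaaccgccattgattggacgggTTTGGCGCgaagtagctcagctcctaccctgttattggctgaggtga

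The match went with neither a common level nor a common difference. The 10 genes that held it averaged between 2.92 FPKM (Orc3) and 207.8 FPKM (Pole4) over the 6 libraries, with a median of 17.9 FPKM. Tested genes with a window and no match, 27 in number, lay between 1.46 and 117.6 FPKM with a median of 9.20 FPKM. The median log2 fold change was 0.060 in the first set, with 7 above 0 and 3 below, and 0.086 in the second, with 18 above and 9 below. A match is a description of the letters, and a gene without one may still be bound elsewhere.

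Against this background of levels, the difference between inhibitor and control was examined gene by gene as log2(FPKM + 1), a scale on which changes of low genes look smaller than they are. Of the 47 genes, 44 averaged at least 1 FPKM and were tested within a limma fit of 9691 genes, and Mcm8, Mcm9 and Mcm3ap were not. None of the 44 passed at an adjusted p of 0.05, and neither did any of the 9691 genes (0% called in each direction, with 457 higher and 368 lower at an unadjusted p under 0.05). At an unadjusted p under 0.05 there were 2 genes with higher values, Cdc6 and Rfc3, which is 4.55% of the 44 beside 4.72% of all genes tested. There were 0 with lower values, beside 3.8% of all genes. These shares are near the background and single out nothing about replication genes.

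That small count moved with single libraries. Leaving out control replicate 1 gave 0. The count was 1 higher and 0 lower without control replicate 2 (Rfc3) or 3 (Mcm3). It was 0 higher and 1 lower without inhibitor replicate 1 (Gins4) or 2 (Mcm4). Over all genes tested, these 5 settings gave 3 to 4.92% higher and 2.38 to 4.62% lower. Without inhibitor replicate 3 it was 6 higher (Cdc6, Rfc3, Pold2, Mcm7, Cdt1 and Fen1) and 1 lower (Prim1). That is 13.6% and 2.27% of the 44, beside 7.74% and 4.44% of all genes tested. Under median-ratio scaling it was 1 higher and 1 lower, beside 3.35% and 4.95% of all genes, and under quantile normalization 0 higher and 1 lower, beside 2.77% and 5.6%. Library weights gave 3 higher and 1 lower, beside 5.81% and 4.34%.

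Separation between the groups told the same. In 4 genes, Cdc6, Rfc3, Rfc2 and Pold1, all inhibitor libraries lay above all controls, 9.09% of the 44 beside 9.13% of all genes tested. In 3 genes, Prim1, Orc6 and Rpa2, they all lay below, 6.82% beside 6.26%. The signs were mixed as well: 26 of the 44 fold changes were above 0 (59.1%, beside 57.1% of all genes), with a median of 0.035 beside 0.062. Under quantile normalization 17 of the 44 were above 0, beside 46.95% of all genes, and with values rescaled to a common total 35 were, beside 66.8%. With a common total that left out the mitochondrial genes 27 were, beside 58.1%.

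The intervals show what sizes of change the data leave possible. In 36 of the 44 genes the 95% interval of the difference, not adjusted for the number of genes, lay within -1 and 1 on the log2(FPKM + 1) scale. The share was 81.8%, beside 63.3% of all genes tested, whose median level was lower, at 5.65 FPKM against 11.3 FPKM. The 8 whose intervals reached past -1 or 1 were Cdt1, Mcm3, Mcm4, Mcm7, Pold1, Pold2, Rfc3 and Fen1. For low genes the same bounds allow larger fold changes in FPKM itself, because 1 was added to each value. Pold4, at 1.62 FPKM in controls, is among the 36 with an interval of -0.98 to 0.48. The authors' deposited table gives its own test, in which 0 of the 47 genes were marked, beside 0.792% of its genes. An unadjusted p under 0.05 in the authors' deposited table was given to 4 of them, Cdc6 and Rfc3 with a fold above 1 (3.64% of its genes in that direction) and Prim1 and Orc6 with a fold below 1 (3.88%), and the lowest q among the 47 was 0.237, for Prim1.

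**Figure D1:**
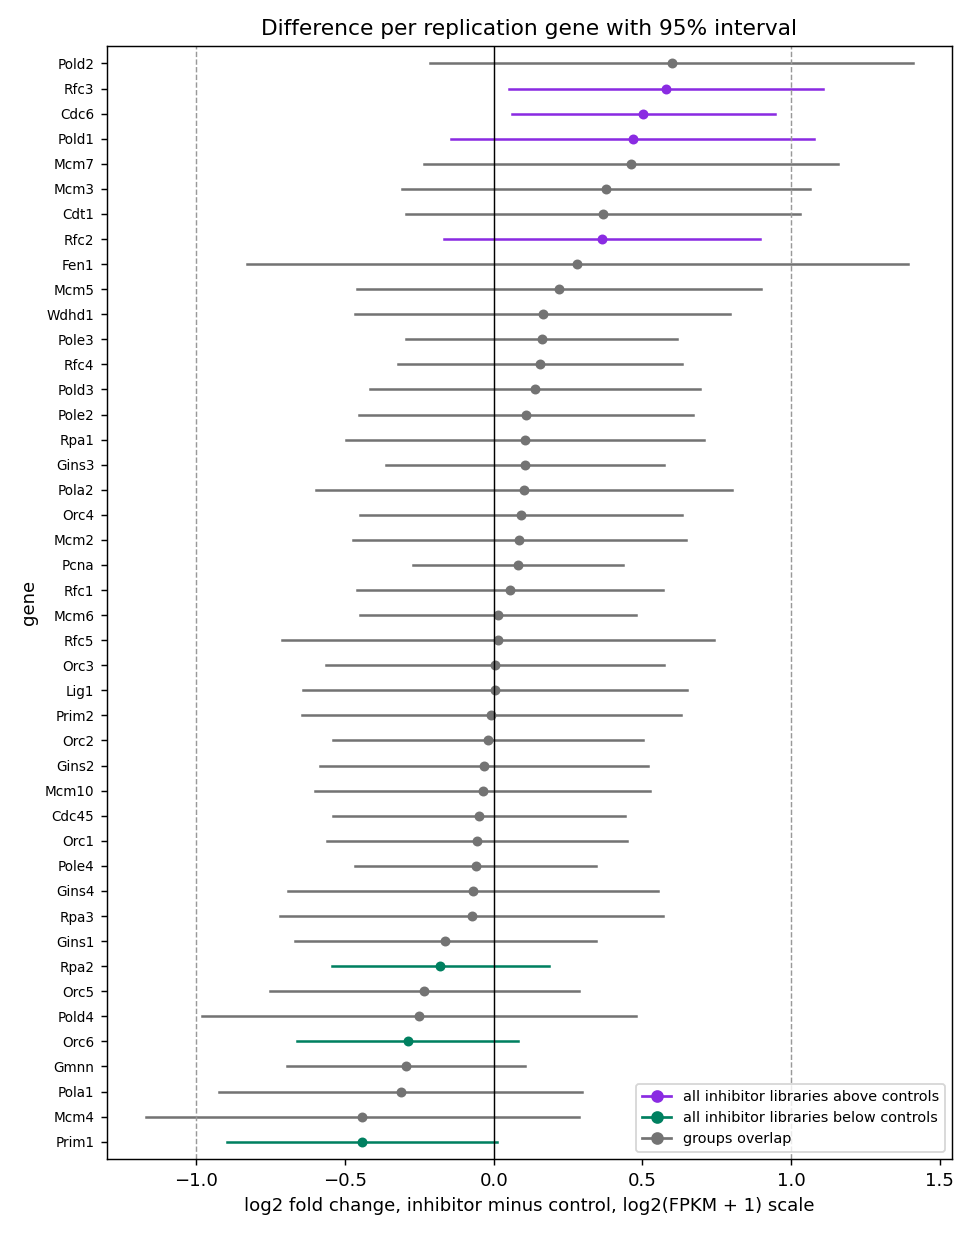
Log2 fold change of the 44 tested genes (points) on the log2(FPKM + 1) scale, inhibitor minus control, with the unadjusted 95% interval from limma (bars) and dashed lines at -1 and 1. The points run from -0.44 for Prim1 to 0.60 for Pold2, and the intervals of Cdc6 and Rfc3 alone exclude 0.

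Origin recognition begins with the 6 ORC subunits, of which Orc1 to Orc5 form the ring that holds DNA and Orc6 binds beside it. Their levels differed by 37.3-fold between the highest and the lowest subunit. Orc6 (ENSMUSG00000031697, GRCm38 chromosome 8, 85299632 to 85308278, plus strand) was measured at 119.9, 108 and 132 FPKM in controls and at 105, 89.9 and 99.1 FPKM with AXKO-0046. Each inhibitor library was thus below each control. Its fitted log2 fold change was -0.29 (SE 0.16, limma adjusted p = 0.646), and it stayed below 0 in each of the 16 alternatives fitted.

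The other ORC subunits overlapped between groups. Orc4 averaged 42.8 FPKM ± 1.81 in controls and 47.2 FPKM ± 15.8 with AXKO-0046, where replicate 3 alone reached 65.4 FPKM (SD, n = 3 each). Orc1, the regulatory subunit that carries an ATPase, averaged 20.8 FPKM ± 4.24 and 19.8 FPKM ± 2.49. Orc2 was close to it, at 19.3 FPKM ± 3.22 and 19.1 FPKM ± 4.21, and these neighbours did not differ beyond their spread. The level of Orc2 is uncertain, because 1150 of its 3857 exon bases overlap Nif3l1 on the other strand, which reached 14 FPKM. Orc5 averaged 6.002 FPKM ± 0.758 and 4.97 FPKM ± 0.744, and Orc3 2.91 FPKM ± 0.552 and 2.94 FPKM ± 0.733. Within the complex 2 fold changes were above 0 and 4 below. That split was 4 and 2 with values rescaled to a common total, and 0 and 6 under quantile normalization, so no common direction can be given.

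Cdc6, the ATPase that joins ORC to load the helicase, had the smallest p among the replication genes. Its values were 25.8, 28.7 and 29.8 FPKM in controls and 40.9, 47.2 and 33.6 FPKM with AXKO-0046 (ENSMUSG00000017499, chromosome 11, 98907801 to 98923940, plus strand). All 3 inhibitor libraries were higher than any control, replicate 2 the most and replicate 3 the least. On the log2 scale the fold change was 0.50 (SE 0.19, 95% interval 0.060 to 0.95), with a limma unadjusted p of 0.0304 and an adjusted p of 0.534. Leaving out inhibitor replicate 2 gave 0.39 and leaving out replicate 3 gave 0.63, and the adjusted p ran from 0.302 to 0.904 over the alternatives. With a library left out, the limma unadjusted p of Cdc6 was under 0.05 only without inhibitor replicate 3. It was not under 0.05 with quantile normalization.

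Cdt1, the other loader and the target of geminin, did not separate. It was at 20.9, 16.8 and 27.2 FPKM in controls and at 29.1, 38.3 and 18.9 FPKM with AXKO-0046. Inhibitor replicates 1 and 2 were above every control, while replicate 3 fell among them. Its log2 fold change was 0.37 (SE 0.29, limma adjusted p = 0.729), 0.14 without inhibitor replicate 2 and 0.63 without inhibitor replicate 3.

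Geminin was the most abundant of the 47 transcripts per length. Gmnn (ENSMUSG00000006715, chromosome 13, 24751845 to 24761923, minus strand) was at 462, 433 and 569 FPKM in controls and at 440.01, 340.2 and 412 FPKM with AXKO-0046. Inhibitor replicate 1 lay just above control replicate 2, so the groups overlapped, and the other 2 inhibitor libraries lay below all controls. The log2 fold change was -0.29 (SE 0.18, limma adjusted p = 0.662), and -0.19 without inhibitor replicate 2. Per length, Gmnn exceeded Cdt1 by 22.1, 25.8 and 20.9 times in the control libraries and by 15.1, 8.87 and 21.8 times in the inhibitor libraries. The lowest ratio was in inhibitor replicate 2, the library with the 2-cell genes, and inhibitor replicate 3 lay within the controls. The RNA ratio does not give the ratio of the proteins, whose stability is regulated through the cell cycle.

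**Figure D2:**
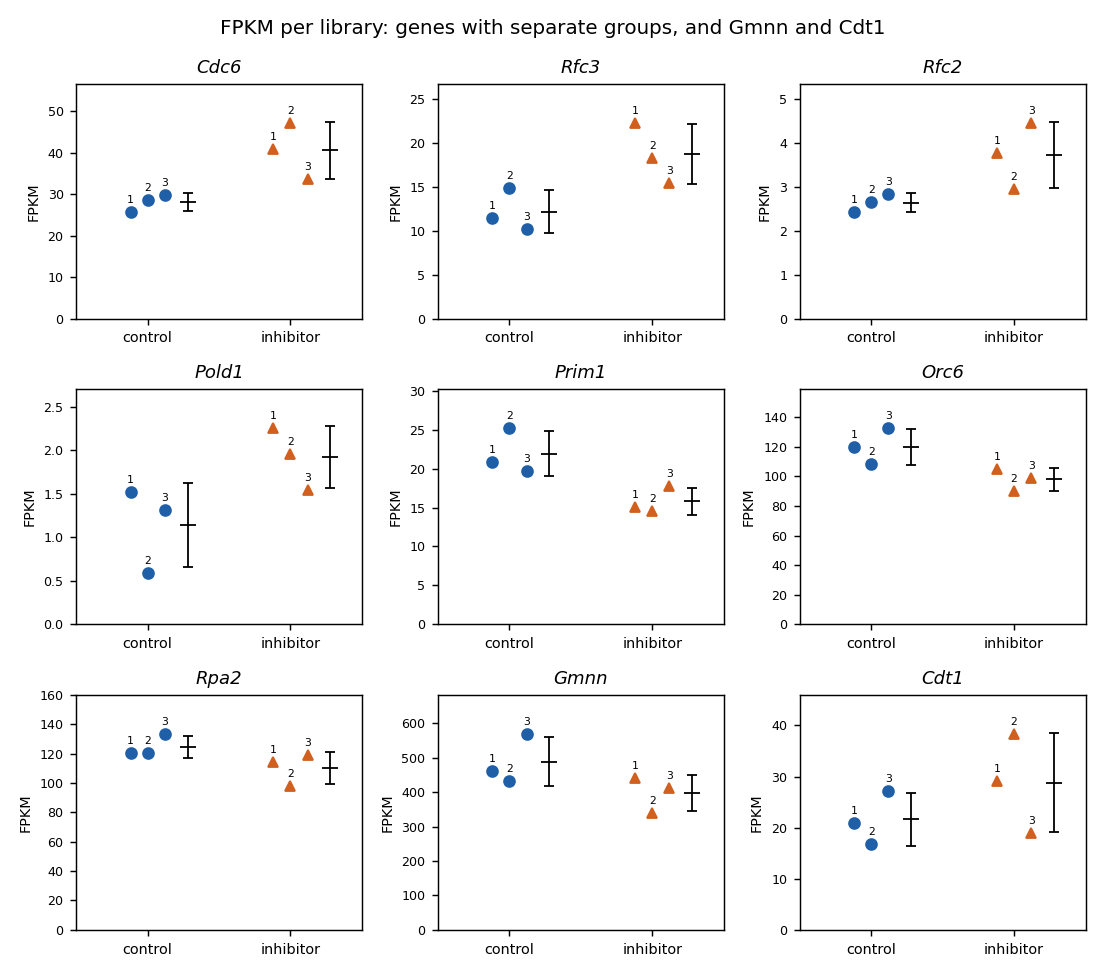
FPKM in each library (numbered by replicate; circles, controls; triangles, inhibitor) with the mean and SD of each group (bars, n = 3), on axes that start at 0, for the 7 genes whose groups do not overlap and for Gmnn and Cdt1. Cdc6, Rfc3, Rfc2 and Pold1 are higher in all inhibitor libraries, Prim1, Orc6 and Rpa2 lower, and in Cdt1 inhibitor replicate 3, at 18.9 FPKM, lies among the controls.

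The helicase itself was expressed at modest and uneven levels. The 6 subunits MCM2 to MCM7 form one ring with a single copy of each, yet their transcripts ran from 4.01 FPKM (Mcm2) to 23.96 FPKM (Mcm6) averaged over all libraries. Mcm6 was at 19.6, 28.6 and 23.7 FPKM in controls and 24.8, 24.8 and 22.3 FPKM with AXKO-0046. The inhibitor libraries sat inside the range of the controls, and the log2 fold change was 0.015 (SE 0.20).

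Mcm4 was at 10.4, 17.8 and 11.5 FPKM in controls and 7.44, 14.6 and 7.21 FPKM with AXKO-0046. In both groups replicate 2 was the high one. The log2 fold change of Mcm4 was -0.44 (SE 0.32), the lowest in the ring, and -0.74 without inhibitor replicate 2 (limma adjusted p = 0.713 with all libraries and 0.506 without that one). Mcm3 was at 7.51, 7.02 and 14.6 FPKM in controls and 13.1, 14.1 and 9.98 FPKM with AXKO-0046. Control replicate 3 was the highest of all 6 for Mcm3, and without it the log2 fold change went from 0.38 to 0.68 (limma adjusted p = 0.729 and 0.753).

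Mcm7 was at 5.89, 7.23 and 7.98 FPKM in controls and 9.46, 15.5 and 6.70 FPKM with AXKO-0046. As for Cdt1, inhibitor replicates 1 and 2 were above all controls and replicate 3 was not. Its fitted log2 fold change was 0.46 (SE 0.31, limma adjusted p = 0.692), 0.17 without inhibitor replicate 2 and 0.72 without inhibitor replicate 3. Mcm7 shares exon bases with Ap4m1 and Cops6 on the other strand, and the labels do not mention strand, so its level is uncertain.

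Mcm5 was at 3.96, 4.24 and 7.91 FPKM in controls and 7.89, 5.64 and 5.20 FPKM with AXKO-0046. Mcm2, the lowest subunit, was at 3.41, 3.14 and 5.13 FPKM and at 4.003, 4.57 and 3.80 FPKM. In both the highest control was control replicate 3, and the groups overlapped. Their log2 fold changes were 0.22 (SE 0.30) and 0.086 (SE 0.25). Of the 6 subunits 5 had fold changes above 0 and 1 below, while median-ratio scaling gave 4 and 2 and quantile normalization 3 and 3. The summed level of the ring was 63.2 FPKM ± 10.8 in controls and 67.01 FPKM ± 11.9965 with AXKO-0046 (SD, n = 3 each), a difference smaller than the spread within either group.

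The related proteins MCM8 and MCM9, which act in repair by homologous recombination, were near the bottom of the range. Mcm8 had the lowest mean of the 47, at 0.699, 0.572 and 0.397 FPKM in controls and 0.942, 0.601 and 1.25 FPKM with AXKO-0046. Its groups overlapped through inhibitor replicate 2. Mcm9 averaged 0.893 FPKM ± 0.305 and 0.828 FPKM ± 0.186, and Mcm3ap 0.830 FPKM ± 0.168 and 1.11 FPKM ± 0.315 (SD, n = 3 each). Mcm9 shares 1748 exon bases with Asf1a, a histone chaperone gene on the opposite strand, so the 2 cannot be fully told apart.

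Activators of the helicase spanned a wide range. GINS is made of one copy each of 4 subunits, and Gins4 averaged 225 FPKM over all libraries, Gins1 80.3, Gins3 53.1 and Gins2 2.96 FPKM. Gins2 is the exception at the low end, and most of its annotated exon length overlaps Gse1 on the other strand, which was at most 0.187 FPKM. Gins4 varied most between inhibitor libraries. It was at 221, 209 and 243 FPKM in controls and at 339.7, 159 and 179.5 FPKM with AXKO-0046.

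Inhibitor replicate 1 was the highest of the 6 libraries for Gins4 and the other 2 inhibitor libraries the lowest, so the mean (226 FPKM ± 99.04, SD, n = 3) hides opposite deviations. Its log2 fold change was -0.069 (SE 0.27), -0.40 without inhibitor replicate 1 and 0.14 without inhibitor replicate 2 (limma adjusted p = 0.958, 0.552 and 0.911). Cdc45, which completes the active helicase with GINS, averaged 55.9 FPKM ± 5.17 in controls and 54.96 FPKM ± 13.8 with AXKO-0046. Mcm10, needed to start unwinding, averaged 3.31 FPKM ± 0.478 and 3.24 FPKM ± 0.880, and Wdhd1, which links the helicase to polymerase alpha, 2.08 FPKM ± 0.836 and 2.38 FPKM ± 0.448 (SD, n = 3 each).

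Priming enzymes held the gene with the lowest fold change on the log2(FPKM + 1) scale, nearly tied with Mcm4 (-0.4435 and -0.4412). Prim1, the catalytic subunit of primase (ENSMUSG00000025395, chromosome 10, 128015168 to 128030037, plus strand), was at 20.8, 25.2 and 19.7 FPKM in controls and at 15.04, 14.6 and 17.8 FPKM with AXKO-0046. All 3 inhibitor libraries were below all controls. On the log2 scale the fold change was -0.44 (SE 0.20, 95% interval -0.90 to 0.010), with a limma unadjusted p of 0.0544 and an adjusted p of 0.597. It ran from -0.56 under quantile normalization to -0.34 with a common total, and its adjusted p from 0.380 to 0.904 over the alternatives.

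Its partner Prim2, the large primase subunit, did not follow. Prim2 was at 6.11, 12.7 and 7.84 FPKM in controls and 9.30, 8.54 and 7.59 FPKM with AXKO-0046, with every inhibitor library inside the range of the controls (log2 fold change -0.0082, SE 0.28). Pola1, the catalytic subunit of polymerase alpha, averaged 10.1 FPKM ± 2.75 and 7.91 FPKM ± 1.93, and Pola2, its accessory subunit, 1.58 FPKM ± 0.219 and 1.89 FPKM ± 0.988 (SD, n = 3 each). Whether Prim1 differs from Prim2 in its response was not tested.

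Among the replicative polymerases, delta makes most of the lagging strand and epsilon the leading strand. Pold1, the catalytic subunit of polymerase delta (ENSMUSG00000038644, chromosome 7, 44532746 to 44548849, minus strand), was at 1.52, 0.592 and 1.32 FPKM in controls and at 2.25, 1.96 and 1.55 FPKM with AXKO-0046. The groups were separate by a narrow margin, since the lowest inhibitor value stood beside the highest control. The log2 fold change was 0.47 (SE 0.27, limma adjusted p = 0.646), and 0.27 without control replicate 2.

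Pold2, an accessory subunit, had the highest fold change of the 44 genes on the log2(FPKM + 1) scale. It was at 6.14, 5.86 and 8.45 FPKM in controls and at 14.8, 14.2 and 5.66 FPKM with AXKO-0046. Again inhibitor replicate 3 was unlike the other 2 and was the lowest of all 6. Its fitted log2 fold change was 0.60 (SE 0.36, 95% interval -0.21 to 1.41, limma adjusted p = 0.660), 0.38 without inhibitor replicate 1 and 1.01 without inhibitor replicate 3, where the adjusted p was 0.286.

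Pold3, the most abundant delta subunit, averaged 34.7 FPKM ± 1.46 in controls and 39.7 FPKM ± 12.9 with AXKO-0046, and Pold4 1.62 FPKM ± 0.395 and 1.29 FPKM ± 0.894 (SD, n = 3 each). Pold4 had the lowest mean of the genes tested. The accessory epsilon subunits were steady. Pole4 averaged 212 FPKM ± 27.5 and 204 FPKM ± 29.3, Pole3 47.6 FPKM ± 9.47 and 52.8 FPKM ± 5.06, and Pole2 7.62 FPKM ± 2.17 and 8.10 FPKM ± 0.270, and in each the difference was under the larger SD. Pole3 and Pole4 are histone-fold proteins, and Pole3 also serves in chromatin remodelling.

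Pcna forms the sliding clamp that tethers polymerases and recruits ligase and nuclease. Its values had the smallest SE of the 44 genes. They were 85.2, 96.98 and 87.2 FPKM in controls and 91.3, 99.3 and 94.1 FPKM with AXKO-0046, with the groups overlapping. On the log2 scale the fold change was 0.080 (SE 0.16, 95% interval -0.27 to 0.43). The level is uncertain, because the table also lists Pcna-ps2, a pseudogene near-identical to 51.4% of the transcript, at 58.5 to 70.6 FPKM.

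The clamp loader opens the ring and closes it around primed DNA, with Rfc1 as its large subunit and Rfc2 to Rfc5 as small ones. Rfc3 (ENSMUSG00000033970, chromosome 5, 151642756 to 151651242, minus strand) was at 11.5, 14.9 and 10.2 FPKM in controls and at 22.3, 18.3 and 15.5 FPKM with AXKO-0046. All inhibitor libraries were higher, though inhibitor replicate 3 only just cleared control replicate 2. The log2 fold change was 0.58 (SE 0.23, 95% interval 0.052 to 1.11), with a limma unadjusted p of 0.0349 and an adjusted p of 0.551. Over the alternatives it ran from 0.45 to 0.72 and the adjusted p from 0.336 to 0.898.

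Rfc2 (ENSMUSG00000023104, chromosome 5, 134581366 to 134601805, plus strand) was separate as well. It was at 2.42, 2.66 and 2.85 FPKM in controls and 3.77, 2.95 and 4.46 FPKM with AXKO-0046. Its log2 fold change was 0.36 (SE 0.23, limma adjusted p = 0.676), and it shares 952 exon bases with Lat2 on the other strand. Rfc4, the most abundant subunit, averaged 69.6 FPKM ± 8.63 and 78.6 FPKM ± 18.5, Rfc1 12.5 FPKM ± 2.51 and 12.9 FPKM ± 1.63, and Rfc5 5.65 FPKM ± 1.10 and 6.001 FPKM ± 2.78 (SD, n = 3 each). Rfc4 shares 194 exon bases with Eif4a2 on the other strand, which reached 26.8 FPKM. All 5 fold changes of the loader were above 0, but 3 of 5 under median-ratio scaling and under quantile normalization.

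RPA coats the unwound single strands as a trimer of one copy each of its subunits. Rpa2 (ENSMUSG00000028884, chromosome 4, 132768332 to 132778752, plus strand) was at 120.3, 120.7 and 133 FPKM in controls and at 114, 98.01 and 119 FPKM with AXKO-0046. The groups were separate, but inhibitor replicate 3 and control replicate 1 nearly touched. Its fitted log2 fold change was -0.18 (SE 0.16, limma adjusted p = 0.753), and -0.097 without inhibitor replicate 2. Rpa3 averaged 8.71 FPKM ± 2.35 and 8.22 FPKM ± 2.26, and Rpa1, the large subunit that makes most contacts with DNA, 1.44 FPKM ± 0.347 and 1.66 FPKM ± 0.595 (SD, n = 3 each). Rpa2 thus stood 75.9-fold above Rpa1 in transcripts per length.

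Okazaki fragments are finished by Fen1, the nuclease that trims flaps, and Lig1, the ligase that seals the nick. Fen1 was at 4.56, 3.34 and 5.76 FPKM in controls and at 8.71, 9.33 and 1.92 FPKM with AXKO-0046. It shows the pattern of Pold2 at its most extreme, with inhibitor replicates 1 and 2 the highest and replicate 3 the lowest of all 6. Its log2 fold change was 0.28 (SE 0.48, limma adjusted p = 0.883), -0.038 without inhibitor replicate 2 and 0.88 without inhibitor replicate 3 (adjusted p = 0.304). Of its 2422 exon bases 1909 overlap the antisense gene Gm10143, which was at most 0.660 FPKM. Lig1 averaged 1.48 FPKM ± 0.275 and 1.55 FPKM ± 0.706 (SD, n = 3 each).

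Seen over all libraries, subunits that meet in one complex at equal numbers were measured at very unequal transcript levels, in controls and inhibitor libraries alike. Of the 47 genes 5 averaged at least 100 FPKM (Gmnn, Gins4, Pole4, Rpa2 and Orc6), and 24 averaged under 10 FPKM. The ratio of the highest to the lowest subunit was 76.1 in GINS, 75.9 in RPA, 37.3 in ORC, 26.4 among the epsilon accessory subunits, 25.6 in polymerase delta, 23.2 in the clamp loader and 5.98 in MCM2-7. Over the 47 genes the mean level went down with transcript length (Spearman rho -0.48, a description over genes that share libraries and a length-dependent unit). The parts of length and of poly(A) priming in the levels were not tested.

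**Figure D3:**
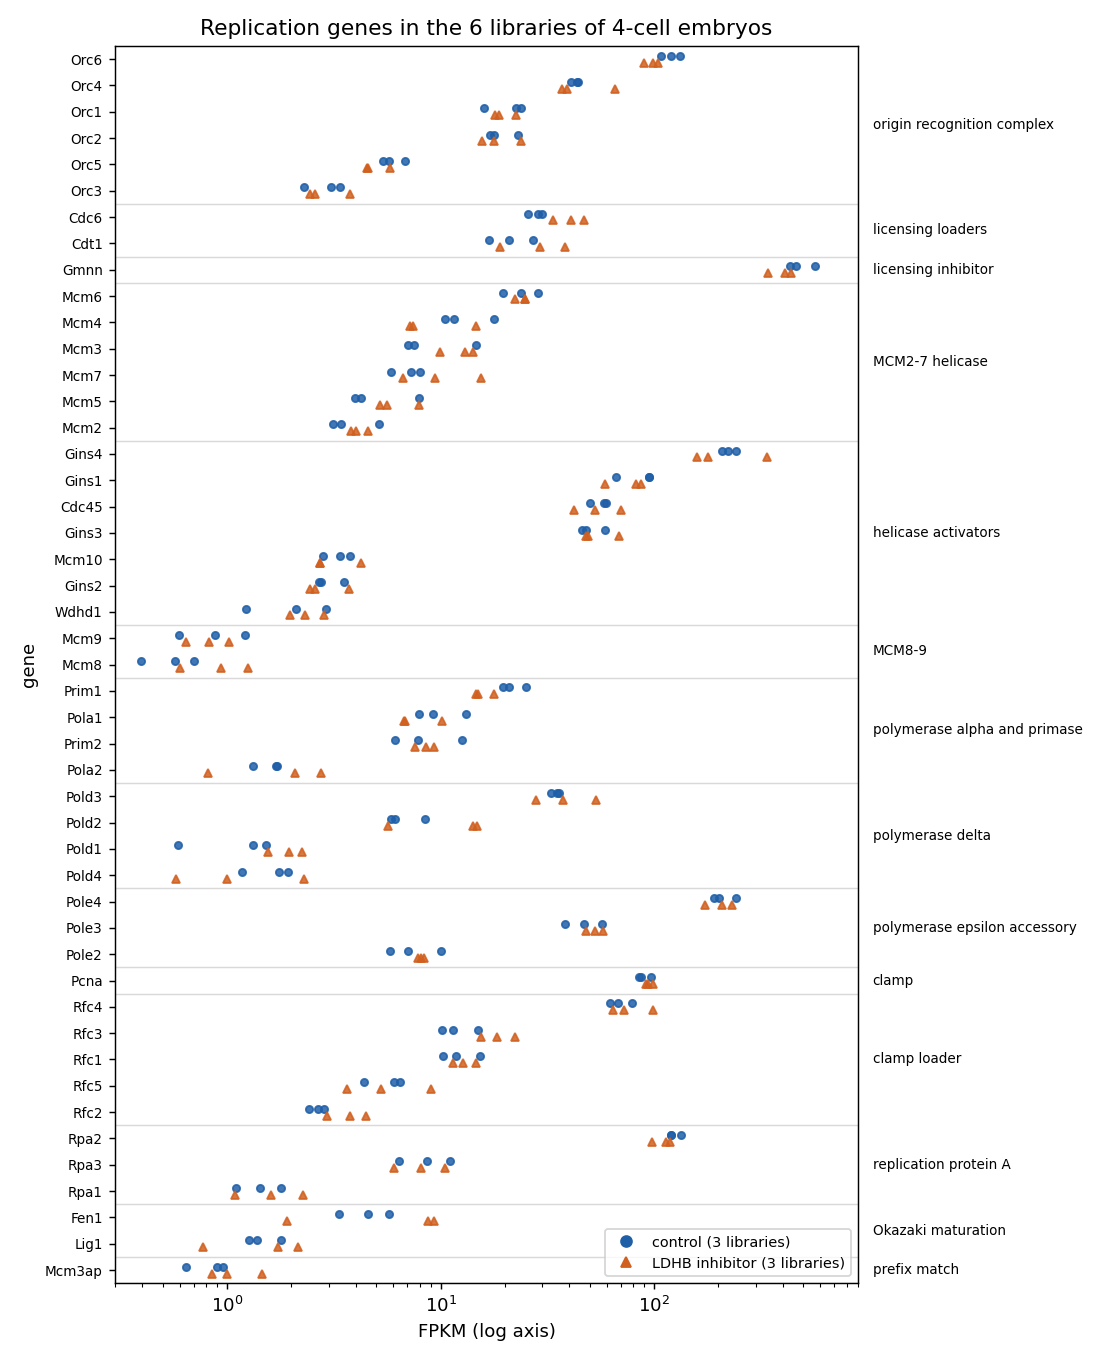
FPKM on a log axis of the 47 genes in the 6 libraries (circles, controls; triangles, inhibitor), grouped by role and ordered by mean level within each role. Gmnn lies highest, between 340.2 and 569 FPKM, and within most complexes the subunits are spread over a far wider range than the 2 groups of libraries.

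Libraries differed in how often they held an extreme. Inhibitor replicate 2 had the highest value of the 6 in 14 of the 47 genes (29.8%), beside 26.5% of all genes tested, and inhibitor replicate 3 the lowest in 11 (23.4%), beside 20.6%. Control replicate 1 had the highest value in 3 (6.38%, beside 11.3%) and the lowest in 12 (25.5%, beside 18.3%). Control replicate 3 had the highest value in 10 (21.3%, beside 12.6%). Inhibitor replicate 3 had the highest in 5 (10.6%, beside 20.2%), and inhibitor replicate 1 the lowest in 3 (6.38%, beside 15.4%). These departures from the shares over all genes were not tested. Set against the mean of the controls, the median deviation of the tested genes was 0.063, 0.13 and -0.093 on the log2(FPKM + 1) scale in inhibitor replicates 1, 2 and 3. It was -0.071, -0.013 and 0.071 in control replicates 1, 2 and 3. Both groups thus held libraries that deviated upward and downward, the farthest being inhibitor replicate 2.

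Beyond the symbol rule, 84 further genes of the pathway were listed by function, and 66 of them were tested. None passed, 30 had fold changes above 0 and 36 below, and the median was -0.036 beside 0.062 over all genes. At a limma unadjusted p under 0.05, 5 of the 66 were higher and 1 lower, beside 4.72% and 3.8% of all genes tested. All inhibitor libraries lay above all controls in 4 of the 66 and below in 6, beside 9.13% and 6.26% of all genes tested. The genes named from each list are those with its smallest p, so separate groups among them single out nothing. In the list of kinases and factors that fire origins, 2 were above 0 and 5 below. Ticrr, which brings Cdc45 to the helicase, averaged 4.97 FPKM ± 0.592 in controls and 5.77 FPKM ± 1.32 with AXKO-0046, and Pole, the catalytic epsilon subunit, 3.51 FPKM ± 0.576 and 3.06 FPKM ± 0.709 (SD, n = 3 each).

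Genes that turn over licensing factors, 6 tested, had 2 fold changes above 0 and 4 below. Ddb1, part of the ubiquitin ligase that destroys Cdt1 in S phase, averaged 6.68 FPKM ± 2.47 in controls and 10.6 FPKM ± 1.03 with AXKO-0046, with the groups separate (limma adjusted p = 0.584). Cdc20, an activator of the anaphase-promoting complex, averaged 259 FPKM ± 56.5 and 361 FPKM ± 53.7 (adjusted p = 0.572). Fork protection and checkpoint genes, 11 tested, had 4 above 0 and 7 below.

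The fork protection pair Timeless and Tipin, whose proteins work as one complex, were far apart in level and lay in opposite order. Timeless averaged 0.709 FPKM ± 0.0437 in controls and 2.01 FPKM ± 0.865 with AXKO-0046, all inhibitor libraries higher (limma adjusted p = 0.511). Every Timeless control (0.695, 0.759 and 0.675 FPKM) was under the filter of 1 FPKM. The gene was thus tested only through its higher inhibitor libraries, and its order is a description only. Tipin averaged 304 FPKM ± 20.01 and 240.3 FPKM ± 41.02, all inhibitor libraries lower (adjusted p = 0.620). Neither passed over all genes, and the difference between the 2 was not tested.

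Among 11 genes of deoxynucleotide supply, 6 were above 0 and 5 below. Dck, a salvage kinase, averaged 8.14 FPKM ± 0.751 in controls and 4.91 FPKM ± 0.351 with AXKO-0046 (limma adjusted p = 0.490). Rrm2, the small subunit of ribonucleotide reductase, averaged 161 FPKM ± 18.6 and 121 FPKM ± 24.6 (adjusted p = 0.608). Neither gene had an inhibitor value that reached its lowest control. Of 9 genes of chromatin assembly 5 were above 0 and 4 below. Asf1a averaged 26.7 FPKM ± 3.18 and 41.3 FPKM ± 2.71, and Ssrp1, of the FACT complex, 4.27 FPKM ± 0.374 and 6.43 FPKM ± 1.21, and in both the inhibitor libraries were all higher (adjusted p = 0.430 and 0.609).

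In the list of G1/S control, 7 of 12 were above 0 and 5 below. E2f1, an activator of the E2F family, averaged 1.02 FPKM ± 0.505 in controls and 2.01 FPKM ± 0.467 with AXKO-0046, with overlap (limma adjusted p = 0.608). Cdkn1a, the inhibitor p21, averaged 15.7 FPKM ± 4.84 and 32.8 FPKM ± 11.9 and overlapped as well (adjusted p = 0.493). The 3 tested genes of alternative clamp loaders had 2 above 0 and 1 below, with Dscc1 at 4.83 FPKM ± 0.0511 and 5.73 FPKM ± 1.18 and Chtf8 at 1.30 FPKM ± 0.433 and 1.14 FPKM ± 0.883. The 7 of nucleases, RNase H and topoisomerases had 2 above and 5 below, with Rnaseh2c at 7.05 FPKM ± 0.822 and 9.49 FPKM ± 3.31 and Top1 at 12.6 FPKM ± 1.94 and 11.5 FPKM ± 2.52 (SD, n = 3 each).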

How the data were processed

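The table deposited by the authors holds FPKM values, 1 column a library, with a fold, its log2, a p-value and a q-value per gene from a test not given in the sources used here. Per the submitters' processing notes, the tools were StringTie 2.1.6, HISAT2 2.2.1, cutadapt 1.9, edgeR and DESeq2 with the build GRCm38, in roles not stated. Low FPKM values did not fall on steps of whole reads (for the best step, 16.8% to 34.8% of 400 low values a library were within 0.05 of a whole multiple, above the 10% of evenly spread values but far from nearly all), so depth could not be recovered and counting error has no interval here.

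Sample titles gave the groups and replicate numbers. The limma package (3.58.1, R 4.3.3) fitted log2(FPKM + 1) with trended and robust empirical Bayes, over genes averaging 1 FPKM or more, with Benjamini-Hochberg adjustment over all 9691 genes. The fit was tested on simulated data. The genes and lists were chosen with earlier results of these data known. Values in every library are given for genes with separate groups, the highest and lowest gene and the licensing core (Cdc6, Cdt1, Gmnn, Pcna, Mcm2 to Mcm7). From each other list the 2 genes with the smallest p are named. Gins4, Pold2, Fen1 and Prim2 were added after their values were seen, as were the markers Dppa3, Klf17, Pou5f1, Sall4, Npm2 and Oosp1. Coordinates, transcript lengths and exon overlaps came from GENCODE M21, near-identical copies (at least 95% identity) from BLAST 2.17.0, and upstream sequences from RefSeq (GRCm38.p6), which matched 40 of 47 symbols. Figures used matplotlib 3.10.9 and Python 3.11.15.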

Additional observations from a re-analysis of the deposited data

How the results depend on the processing

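Of 945 fold changes recomputed for 60 genes under 16 alternatives, 0 passed the threshold, and none reversed among genes more than 1 SE from 0, while 74 values of genes nearer to 0 changed sign. The genes called over all genes numbered 0, and 0 to 12 when a library was left out (12 without inhibitor replicate 1, 1 without inhibitor replicate 2), none of them a replication gene. Genes at an unadjusted p under 0.05 numbered 825, 1300 with no filter, 465 with a filter at 5 FPKM, and 522 to 1182 with a library left out. Replication genes at that p numbered 2, 1 under quantile normalization, 4 with library weights, and 0 to 7 with a library left out. Their median fold change was 0.035, 0.13 with a common total and -0.064 under quantile normalization, with 17 above 0. These changes of the median were larger than its spread between libraries (0.082). Leaving out a library gave medians of 0.016 to 0.086. The median of the other lists was -0.036. It ran from -0.12 under quantile normalization to 0.052 with a common total. Each change from the main value was smaller than the spread between libraries (0.089). Correlations of deviations from the group means were 0.136, 0.202 and 0.037 between libraries of equal replicate number. Between libraries of unequal number they ran from -0.194 to 0.055. Whether the replicate numbers pair the samples cannot be told from so few libraries. With the replicate block 2 replication genes had a limma unadjusted p under 0.05 and 0 were called. A count test was not run, since the table holds no counts. Unknown depth limits what can be said of genes near 1 FPKM.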
